A study of Mus musculus with 4 samples.

Results

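The 9 genes described here belong to the antigen receptor machinery and identity of B cells: Ms4a1, Cd79a, Cd79b, Pax5, Cd22, Blk, Bank1, Siglecg and Ikzf3. They were chosen by symbol among 55291 listed genes, with earlier results of the comparison between the same libraries known, and all 9 were found in every library and passed the filter on low counts. RNA sequencing counts were analysed from 4 pancreas libraries. In 2 libraries the mice were labelled Pdx1-Cre+, poh1f/f, with both copies of poh1 flanked by loxP sites, and in the other 2 they were labelled Pdx1-Cre+, poh1f/+, the submitters' control, with 1 floxed copy. Both groups thus carried the Cre transgene, and age, sex and strain are not in the labels. The Pdx1 promoter drives Cre in the developing pancreatic epithelium, from which acinar, duct and islet cells arise, whereas B cells come from the blood-forming lineage. How many animals stand behind a library is not stated, so spreads and p-values measure differences between these libraries, which may be technical.

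A B cell binds antigen through a membrane immunoglobulin that has almost no cytoplasmic tail. Signalling falls to its partners Cd79a and Cd79b, whose tails carry tyrosines that Src-family kinases such as Blk and Lyn phosphorylate, after which Syk, Blnk, Btk and Plcg2 carry the signal to calcium and NF-kB. Cd22 and Siglecg are sialic acid-binding receptors that recruit phosphatases and dampen the signal, while Bank1 is a scaffold for the kinases. Pax5 commits progenitors to the B lineage and Ikzf3 (Aiolos) acts at later stages of B cell maturation. A healthy pancreas holds few B cells, which become common where lymphoid aggregates form or where a lymph node is included in the sample.

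The genes lie on 6 chromosomes. Cd79a (GRCm38 chromosome 7, 24897381 to 24902197, plus strand), Cd22 (chromosome 7, 30865402 to 30880342, minus strand) and Siglecg (chromosome 7, 43408204 to 43418358, plus strand) share a chromosome without being neighbours, as do Cd79b (chromosome 11, 106311341 to 106314762) and Ikzf3 (chromosome 11, 98464902 to 98546031), both on the minus strand. Ms4a1 (chromosome 19, 11249675 to 11266241), Pax5 (chromosome 4, 44524757 to 44710487), Blk (chromosome 14, 63372836 to 63417037) and Bank1 (chromosome 3, 136053363 to 136326066) are also on the minus strand. The RefSeq table of windows from 250 bases before to 50 bases after the start (GRCm38) matched 5 of the 9 genes with 6 windows. Windows of the genes with the highest level per length and the smallest ratio between groups are shown, 5′ to 3′ on the gene's strand, with the searched letters in capitals.
Cd79a, chr7:24897247-24897546, plus strand: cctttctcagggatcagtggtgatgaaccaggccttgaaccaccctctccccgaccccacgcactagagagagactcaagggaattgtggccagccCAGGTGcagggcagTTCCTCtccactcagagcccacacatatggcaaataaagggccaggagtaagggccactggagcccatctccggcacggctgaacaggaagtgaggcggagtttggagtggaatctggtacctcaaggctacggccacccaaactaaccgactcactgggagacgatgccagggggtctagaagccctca
Cd22, chr7:30878979-30879278, minus strand: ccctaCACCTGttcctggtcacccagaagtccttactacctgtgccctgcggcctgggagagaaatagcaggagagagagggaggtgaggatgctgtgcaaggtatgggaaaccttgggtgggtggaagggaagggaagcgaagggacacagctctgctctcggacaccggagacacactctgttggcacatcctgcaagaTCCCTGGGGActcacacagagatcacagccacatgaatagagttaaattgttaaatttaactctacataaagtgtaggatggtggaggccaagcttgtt
The letters searched, on both strands, were ATTTGCAT (the octamer of Oct factors), TCCC and GGGA with any pair of bases between them (the palindrome of Ebf1), GAGGAA (a core of ETS factors) and CAGGTG (an E-box of E proteins), and no 2 of the matches overlapped. The Cd79a window holds CAGGTG at −154 to −149 and the reverse complement of GAGGAA at −140 to −135, counted from RefSeq's start. The Cd22 window lies inside the gene's coordinates given above, which on the minus strand put the 5′ end at 30880342. It holds the Ebf1 palindrome at −49 to −40 from RefSeq's start, letters found in 0.913% of 32544 windows of the same length. It also holds the reverse complement of CAGGTG at −245 to −240. The other letters are common, with GAGGAA in 28.1% and CAGGTG in 20.3% of windows. Bank1 has 1 CAGGTG match and 1 of the Siglecg windows has 2 GAGGAA matches, the Pax5 window has none of the 4, and the octamer, present in 1.75% of windows, is in none of the 6. A match describes letters and not a bound site, and a site with other letters would not be found by this search.

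Psmd14, the current symbol of poh1, is given first. Its level, in CPM (the count relative to the TMM-scaled library total), was 65.9 and 65.2 CPM in the libraries labelled poh1f/f, against 61.6 and 52.9 CPM in the poh1f/+ libraries (log2 fold change 0.20 ± 0.11 SE, edgeR adjusted p = 0.259). Its RNA was thus not lower under the label of loss, and the sources used here do not name the floxed exons. RNA of a whole organ also comes from cells outside the epithelium where Pdx1 drives Cre, so this value cannot check the labels. Directions below are directions between labels. Total counts were 27470926 and 27849730 in the libraries labelled poh1f/f, and 22875618 and 24635792 in the poh1f/+ libraries, so that 1 count was worth 0.0342 to 0.0455 CPM. Libraries stood apart in other tissues: 12 intestinal epithelium markers summed to 43.0 and 792 CPM in the libraries labelled poh1f/f, against 87.4 and 105 CPM in the poh1f/+ libraries, and 9 acinar markers to 211 and 608 CPM, against 9519 and 2267 CPM. In poh1f/f replicate 2 the sucrase gene Sis had 85.9 CPM, and it had no count in the other 3 libraries.

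All 9 genes were far more abundant in the libraries labelled poh1f/f than in the poh1f/+ libraries. Their summed level was 1247 and 1266 CPM in the libraries labelled poh1f/f, against 98.9 and 66.3 CPM in the poh1f/+ libraries, a ratio of means of 15.2. The groups did not overlap for any of the 9 genes; of all 19134 genes tested, 34.4% were likewise separated upward and 33.7% downward. The log2 fold change was at least 3 for 8 of the 9 genes and for 3.84% of tested genes, and 22.1% of tested genes passed the test described below in either direction. The genes were listed because of this contrast, so these values describe the choice, no test is given for them, and nothing is read from the count. In RNA of a whole organ, more B cells and more RNA per B cell cannot be told apart.

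The signalling pair of the receptor was high in both libraries labelled poh1f/f. Cd79a had 174 and 168 CPM in the libraries labelled poh1f/f, against 10.5 and 5.90 CPM in the poh1f/+ libraries, or 170.8 ± 4.26 against 8.18 ± 3.23 CPM (SD, n = 2 each), a fitted log2 fold change of 4.39 ± 0.29 (SE). Cd79b had 131 and 129.9 CPM in the libraries labelled poh1f/f, against 13.3 and 9.45 CPM in the poh1f/+ libraries, with a log2 fold change of 3.52 ± 0.19. The lower poh1f/f value exceeded the higher poh1f/+ value 16.0 times for Cd79a and 9.75 times for Cd79b. The pair differed in proportion between the groups, although their proteins form a heterodimer. Per kilobase of annotated exon, the Cd79a to Cd79b ratio of levels was 1.30 and 1.27 in the libraries labelled poh1f/f, against 0.771 and 0.613 in the poh1f/+ libraries, so that Cd79b was the more abundant transcript in the poh1f/+ libraries and Cd79a in the others.

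Ms4a1, which encodes the B cell surface protein CD20, had 165 and 156 CPM in the libraries labelled poh1f/f, against 9.42 and 3.30 CPM in the poh1f/+ libraries (160.2 ± 6.25 against 6.36 ± 4.32 CPM, SD, n = 2 each; log2 fold change 4.66 ± 0.49). The poh1f/+ libraries differed 2.85-fold from each other, with replicate 1 above replicate 2, while the libraries labelled poh1f/f were nearly equal. The log2 fold change of Ms4a1 was therefore 5.60 without poh1f/+ replicate 1 and 4.09 without poh1f/+ replicate 2. The other 8 genes were also higher in poh1f/+ replicate 1 than in replicate 2, by 1.20-fold (Siglecg) to 1.91-fold (Pax5). Between the libraries labelled poh1f/f the ratio of replicate 1 to replicate 2 ran from 0.905 (Bank1) to 1.07 (Ikzf3). Without poh1f/f replicate 2 their log2 fold changes were 2.90 (Cd22) to 5.08 (Pax5), against 2.95 to 5.15 with all libraries.

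The inhibitory receptors showed the smallest ratios next to Cd79b. Cd22 had 227 and 244 CPM in the libraries labelled poh1f/f, against 35.5 and 25.3 CPM in the poh1f/+ libraries (235.3 ± 12.1 against 30.4 ± 7.22 CPM, SD, n = 2 each), a ratio of 7.74 and a log2 fold change of 2.95 ± 0.19, the lowest of the 9. Siglecg had 86.3 and 90.2 CPM in the libraries labelled poh1f/f, against 7.55 and 6.27 CPM in the poh1f/+ libraries, a log2 fold change of 3.67 ± 0.14. Cd22 was thus the most abundant of the 9 by CPM in every library and stood out most in the poh1f/+ libraries. It made up 18.2% and 19.3% of the summed CPM of the 9 genes in the libraries labelled poh1f/f, against 35.9% and 38.2% in the poh1f/+ libraries. Relative to Ms4a1, Cd22 stood at 1.38 and 1.56 in the libraries labelled poh1f/f, against 3.77 and 7.66 in the poh1f/+ libraries.

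**Figure D1:**
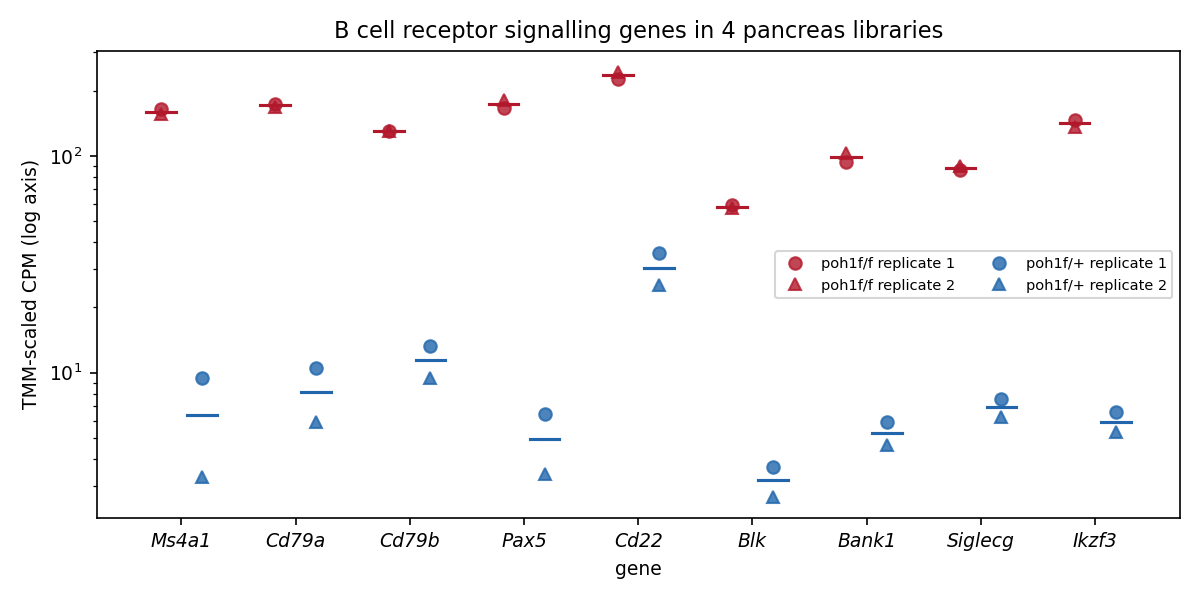
TMM-scaled CPM on a log axis for each of the 9 genes in each library, with poh1f/f in red to the left of poh1f/+ in blue, circles for replicate 1, triangles for replicate 2 and bars for group means. Every red point lies above every blue point of its gene, and Ms4a1 shows the widest gap between blue points, 9.42 against 3.30 CPM.

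The kinase Blk and its scaffold moved by similar amounts. Blk had 59.1 and 57.2 CPM in the libraries labelled poh1f/f, against 3.68 and 2.68 CPM in the poh1f/+ libraries (log2 fold change 4.19 ± 0.20). It was the least abundant of the 9 by CPM, and its lowest value rests on 64 counts, with an exact Poisson 95% interval of 2.06 to 3.42 CPM that covers counting error only. Bank1 had 93.6 and 103 CPM in the libraries labelled poh1f/f, against 5.91 and 4.64 CPM in the poh1f/+ libraries (log2 fold change 4.22 ± 0.16). Among Src-family kinases of the pathway, Blk is the more B cell-restricted one and Lyn is also used by myeloid cells. The ratio of Blk to Lyn CPM was 0.309 and 0.274 in the libraries labelled poh1f/f, against 0.0222 and 0.0170 in the poh1f/+ libraries.

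Among the transcription factors, Pax5 had the largest ratio of the 9. It had 166 and 182 CPM in the libraries labelled poh1f/f, against 6.46 and 3.39 CPM in the poh1f/+ libraries (173.8 ± 11.4 against 4.92 ± 2.17 CPM, SD, n = 2 each), a ratio of 35.3 and a log2 fold change of 5.15 ± 0.32. Ikzf3 had 146 and 136 CPM in the libraries labelled poh1f/f, against 6.55 and 5.31 CPM in the poh1f/+ libraries (log2 fold change 4.57 ± 0.15). Ikzf3 is also used by T cells and plasma cells, whereas its relative Ikzf1 is active in most blood cells. The ratio of Ikzf3 to Ikzf1 CPM was 0.695 and 0.618 in the libraries labelled poh1f/f, against 0.0999 and 0.0806 in the poh1f/+ libraries. The annotated exons of Pax5 share 636 bases with 5730488B01Rik and 125 bases with Gm12462 on the opposite strand, and those of Cd22 share 479 bases with Gm29439. These genes had at most 24 counts in a library, and without a stated strand setting the reads of a shared stretch cannot be assigned.

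Per kilobase of annotated exon, which allows genes to be compared with each other, the level in the libraries labelled poh1f/f ran from Cd79a (mean 117 CPM per kilobase) through Cd79b (91.1), Cd22 (46.7), Ms4a1 (25.9), Blk (21.6), Pax5 (19.6), Siglecg (18.4) and Ikzf3 (16.1) to Bank1 (13.2). This order held within each of both libraries, but the ranges of Pax5 (18.7 and 20.5) and Siglecg (18 and 18.8) across the libraries overlapped. In the poh1f/+ libraries the first places were taken by Cd79b (mean 7.96 CPM per kilobase), Cd22 (6.03) and Cd79a (5.61). Cd79b was highest in both of these libraries (9.31 and 6.61), but the ranges of these genes across the libraries overlapped. Pax5 was last there at 0.556, against 6th place in the libraries labelled poh1f/f. The lengths are unions of all annotated exons, from 1431 bases for Cd79b to 8853 for Pax5, so long alternative ends lower the level per kilobase of some genes.

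**Figure D2:**
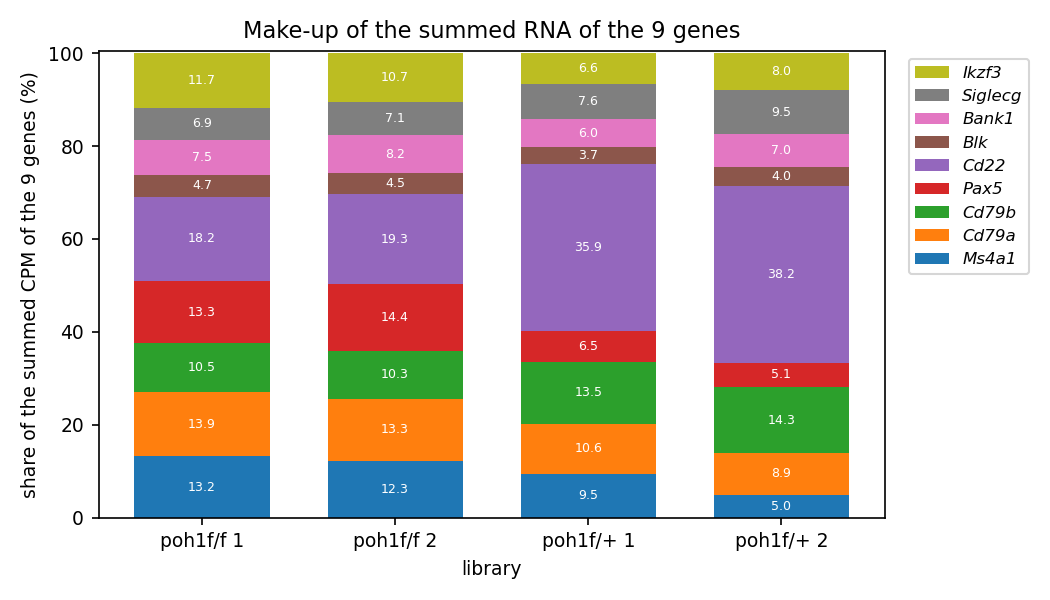
Share of the summed CPM of the 9 genes taken by each gene, in percent, stacked per library with the poh1f/f libraries on the left. Cd22 takes 18.2% and 19.3% in the libraries labelled poh1f/f, against 35.9% and 38.2% in the poh1f/+ libraries, while Pax5 and Ms4a1 take smaller shares in the poh1f/+ libraries.

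The receptors that work beside the antigen receptor were higher as well. Of 16 coreceptors and B cell surface receptors tested, 14 were higher, none was lower and 2 did not pass (edgeR adjusted p under 0.05 over all 19134 genes, of which 12.1% were higher and 9.95% lower). Their median log2 fold change was 4.05, against −0.002 over all genes tested and 4.22 over the 9 genes. Cr2, the complement receptor of mature B cells and follicular dendritic cells, and Fcer2a, the low-affinity IgE receptor of the same cells, had the largest log2 fold changes of the list, 5.86 ± 0.33 and 5.61 ± 0.29 (edgeR adjusted p = 0.00179 and 0.00175), above each of the 9 genes. H2-Ob, a subunit of the class II peptide-loading regulator, rose by 4.22 ± 0.12 (edgeR adjusted p = 0.00153). Cd37, a tetraspanin of several leukocytes, rose by 1.63 ± 0.17 (edgeR adjusted p = 0.00659). The 2 genes that did not pass were Cd81, a widely expressed tetraspanin, at 209 and 162 CPM in the libraries labelled poh1f/f, against 239 and 218 CPM in the poh1f/+ libraries (edgeR adjusted p = 0.227), and Cd180 (log2 fold change 0.50 ± 0.19, edgeR adjusted p = 0.121), which passed without poh1f/+ replicate 1 (0.0458; 0.0458 to 0.165 over its 12 alternatives).

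Kinases and adaptors downstream of the receptor differed far less. Of 18 tested, 9 were higher, none was lower and 9 did not pass, with a median log2 fold change of 0.50. Syk, the kinase that docks on Cd79a and Cd79b, had 327 and 304 CPM in the libraries labelled poh1f/f, against 207 and 217 CPM in the poh1f/+ libraries (log2 fold change 0.57 ± 0.12, edgeR adjusted p = 0.0278). Pik3cd, the leukocyte phosphoinositide 3-kinase subunit, had 231 and 257 CPM, against 128 and 139 CPM (0.87 ± 0.12, edgeR adjusted p = 0.0112). Btk had a log2 fold change of 0.64 ± 0.14 (edgeR adjusted p = 0.0334), and its target-presenting adaptor Blnk one of 0.35 ± 0.17 (0.184). Lyn (0.30 ± 0.11, edgeR adjusted p = 0.11) and Pik3ap1 (−0.06 ± 0.11, 0.717) did not pass. Malt1, a protease on the way to NF-kB, rose by 1.56 ± 0.10 (edgeR adjusted p = 0.00235). The Syk call was lost without poh1f/+ replicate 1 (edgeR adjusted p = 0.0689), poh1f/f replicate 1 (0.159) or poh1f/f replicate 2 (0.0948), and ran from 3.25e-05 to 0.159 over its 12 alternatives. The Btk call was lost without poh1f/+ replicate 2 (0.0590), poh1f/f replicate 1 (0.0561) or poh1f/f replicate 2 (0.0536; range 0.00294 to 0.0590), and that of Pik3cd without poh1f/+ replicate 1 (0.0566; range 1.38e-08 to 0.0566). In all, 6 of the 18 genes were higher without poh1f/+ replicate 1 or poh1f/f replicate 1.

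Inhibitory receptors and phosphatases other than Cd22 and Siglecg were mixed. Of 15 tested, 7 were higher, 1 was lower and 7 did not pass, with a median log2 fold change of 0.52. The largest value of the list was that of Ptpn22 (1.79 ± 0.20, edgeR adjusted p = 0.00728). The gene that fell was Fcgr2b, the inhibitory Fc receptor of B cells and macrophages, with 284 and 277 CPM in the libraries labelled poh1f/f, against 561 and 545 CPM in the poh1f/+ libraries (−0.98 ± 0.12, edgeR adjusted p = 0.00867). Ptpn6, the phosphatase SHP-1 that Cd22 recruits, rose by 0.83 ± 0.13 (edgeR adjusted p = 0.0155), and Pecam1, an adhesion receptor of endothelium and leukocytes, by 0.75 ± 0.13 (0.0192; 0.0517 without poh1f/+ replicate 1, range over alternatives 1.83e-06 to 0.0517). Pirb (−0.41 ± 0.12, edgeR adjusted p = 0.0635) and the ubiquitin ligase gene Cbl (0.67 ± 0.20, 0.0736) did not pass, although Cbl did without poh1f/+ replicate 2 (0.0323; range 0.0101 to 0.128) and Pirb did with DESeq2 (0.0138; range 0.0138 to 0.419). Without poh1f/+ replicate 1, 3 of the 15 genes were higher. Beside this list, the 12 macrophage markers summed to 4926 and 4744 CPM in the libraries labelled poh1f/f, against 8236 and 7257 CPM in the poh1f/+ libraries, and 10 of them were lower and none higher; their part in the values of Fcgr2b and Pirb was not tested. Fewer macrophage markers, 4 and 5, were lower without poh1f/+ replicate 1 or poh1f/f replicate 2, and 6 without poh1f/f replicate 1.

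**Figure D3:**
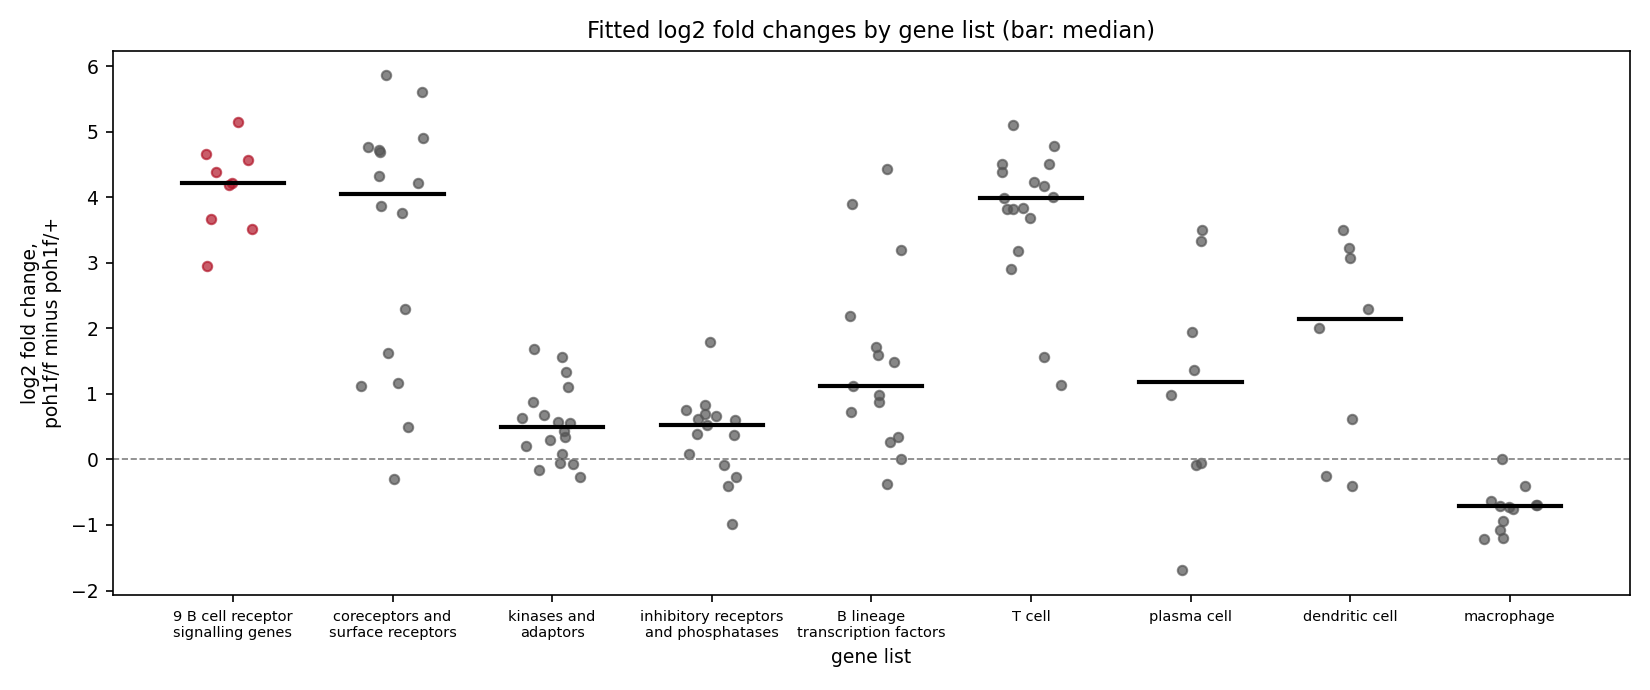
Fitted log2 fold change, poh1f/f minus poh1f/+, of each tested gene, grouped by list, with black bars at list medians and a dashed line at 0. The 9 genes (red) and the coreceptors have medians of 4.22 and 4.05, the kinases and inhibitors 0.50 and 0.52, and the macrophage list −0.72.

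B lineage transcription factors beside Pax5 and Ikzf3 covered a wide range. Of 15 tested, 12 were higher, none was lower and 3 did not pass, with a median log2 fold change of 1.12. The largest values belonged to Spib, an ETS factor of B cells and plasmacytoid dendritic cells (4.43 ± 0.18, edgeR adjusted p = 0.00153), and Pou2af1, the B cell coactivator of Oct factors (3.90 ± 0.42, 0.00694), followed by Irf4 of activated B cells and plasma cells (3.20 ± 0.13, 0.00153). Ikzf1 rose by 1.71 ± 0.10 (edgeR adjusted p = 0.00200), Ets1 by 1.59 ± 0.14 (0.00443) and Irf8 by 0.87 ± 0.16 (0.0223). Ebf1, which acts with Pax5 in B cell commitment and is also active in adipocytes and stromal cells, had 113 and 89.9 CPM in the libraries labelled poh1f/f, against 49.8 and 52 CPM in the poh1f/+ libraries (0.99 ± 0.14, edgeR adjusted p = 0.0114). Foxp1, with 132 and 127 CPM in the libraries labelled poh1f/f, against 106 and 111 CPM in the poh1f/+ libraries, did not pass (0.114). The Ebf1 call was lost without poh1f/+ replicate 1 (0.0757) or poh1f/+ replicate 2 (0.0523; range 3.55e-07 to 0.0757), and that of Irf8 without either of these (0.103 and 0.0911) or without poh1f/f replicate 2 (0.0575; range 1.81e-05 to 0.103). In all, 7 factors were higher without poh1f/+ replicate 1 and 8 without poh1f/+ replicate 2. Pou2af1 was uneven between the libraries labelled poh1f/f, at 176 and 97.4 CPM, whereas Spib was not, at 145 and 141 CPM.

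Genes used by B cell precursors were mixed. Of 9 listed, 4 passed the filter on low counts, of which 2 were higher, 1 was lower and 1 did not pass. Rag1, needed to assemble antigen receptor genes, had 8 and 16 counts in the libraries labelled poh1f/f, against 0 in both poh1f/+ libraries. Rag2 and Vpreb2 had no count in any library, which allows up to 0.107 and 0.103 CPM in the libraries labelled poh1f/f, and 0.136 and 0.125 CPM in the poh1f/+ libraries, from 3 counts per library and for counting error only. Vpreb3, expressed from precursor to mature B cells, had 5.01 and 6.40 CPM, against 0.409 and 0.544 CPM (log2 fold change 3.57 ± 0.35, edgeR adjusted p = 0.00561). Il7r, the interleukin 7 receptor that T cells also carry, had 61.4 and 66.3 CPM in the libraries labelled poh1f/f, against 18.8 and 17.3 CPM in the poh1f/+ libraries, and rose by 1.82 ± 0.12 (edgeR adjusted p = 0.00235). Cd93, a marker of immature B cells that endothelium also expresses, had 138 and 123 CPM, against 262 and 272 CPM, a log2 fold change of −1.03 ± 0.12 (edgeR adjusted p = 0.00765).

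Markers of other lymphoid cells were higher in the same libraries. All 17 tested T cell genes were higher (median log2 fold change 3.99; 16 without poh1f/+ replicate 1 or 2), and they summed to 752 and 864 CPM in the libraries labelled poh1f/f, against 126 and 109.9 CPM in the poh1f/+ libraries. Of these sums, Lcp2, an adaptor that myeloid cells also use, gave 145 and 159 CPM in the libraries labelled poh1f/f, against 73.8 and 64.9 CPM in the poh1f/+ libraries. Relative to Ptprc, the CD45 gene of all leukocytes, the 9 genes stood at 2.04 and 1.89 in the libraries labelled poh1f/f, against 0.449 and 0.256 in the poh1f/+ libraries. Of 8 genes of lymphotoxins and of lymph node and follicle stroma, 6 were higher and none was lower (median 2.67). The count of higher genes changed when single libraries were left out, with medians of 2.50 to 3.06. Among the 6 was Glycam1 of high endothelial venules, at 36.4 and 39.3 CPM, against 0.455 and 0.335 CPM (6.57 ± 0.22, edgeR adjusted p = 0.00153). The lymphotoxin genes Lta (log2 fold change 4.61 ± 0.42) and Ltb (2.66 ± 0.23), which lymphocytes express, were also among the 6. Cxcl13 did not pass in the main fit (edgeR adjusted p = 0.153). It had 264 and 91.9 CPM in the libraries labelled poh1f/f, against 80.1 and 20.6 CPM in the poh1f/+ libraries. Its call depended on the setting, as it passed with a replicate block (log2 fold change 1.94, against 1.82 in the main fit). With single libraries left out, the log2 fold change of Cxcl13 ran from 0.86 to 3.11. The list summed to 618 and 555 CPM in the libraries labelled poh1f/f, against 138 and 85.0 CPM in the poh1f/+ libraries. Whether lymphoid tissue was part of the sampled organ is not given by the labels, and its part in the values of the 9 genes was not tested. Of 8 dendritic cell genes 6 were higher and none was lower, and 4 were higher without poh1f/+ replicate 1.

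Plasma cell genes were mixed. Of 8 tested, 3 were higher, 1 was lower and 4 did not pass (median log2 fold change 1.18). Jchain, the joining chain of secreted antibody, had 924 and 508 CPM in the libraries labelled poh1f/f, against 72.2 and 54.5 CPM in the poh1f/+ libraries (3.50 ± 0.35, edgeR adjusted p = 0.00575; 0.0550 without poh1f/+ replicate 1, range 4.25e-30 to 0.0550). Mzb1, a chaperone of antibody secretion, had 17.2 and 5.51 CPM, against 1.27 and 0.962 CPM (3.34 ± 0.63, edgeR adjusted p = 0.0232), a call lost without poh1f/+ replicate 1 (0.130) or 2 (0.118) and with limma-voom (0.0813; range 4.21e-07 to 0.130). Both were higher in poh1f/f replicate 1 than in replicate 2. Slamf7, a surface receptor of plasma cells and other leukocytes, was the third gene that rose and was even between these libraries, at 52.1 and 54.3 CPM, against 28.6 and 25 CPM in the poh1f/+ libraries (0.99 on the log2 scale, edgeR adjusted p = 0.00897). Sdc1, a plasma cell and epithelial proteoglycan, was the gene that fell, at 99.7 and 72.6 CPM in the libraries labelled poh1f/f, against 257 and 298 CPM in the poh1f/+ libraries (−1.69 ± 0.19, edgeR adjusted p = 0.00763). Without poh1f/f replicate 2, 5 plasma cell genes were higher, and 1 without poh1f/+ replicate 1.

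**Figure D4:**
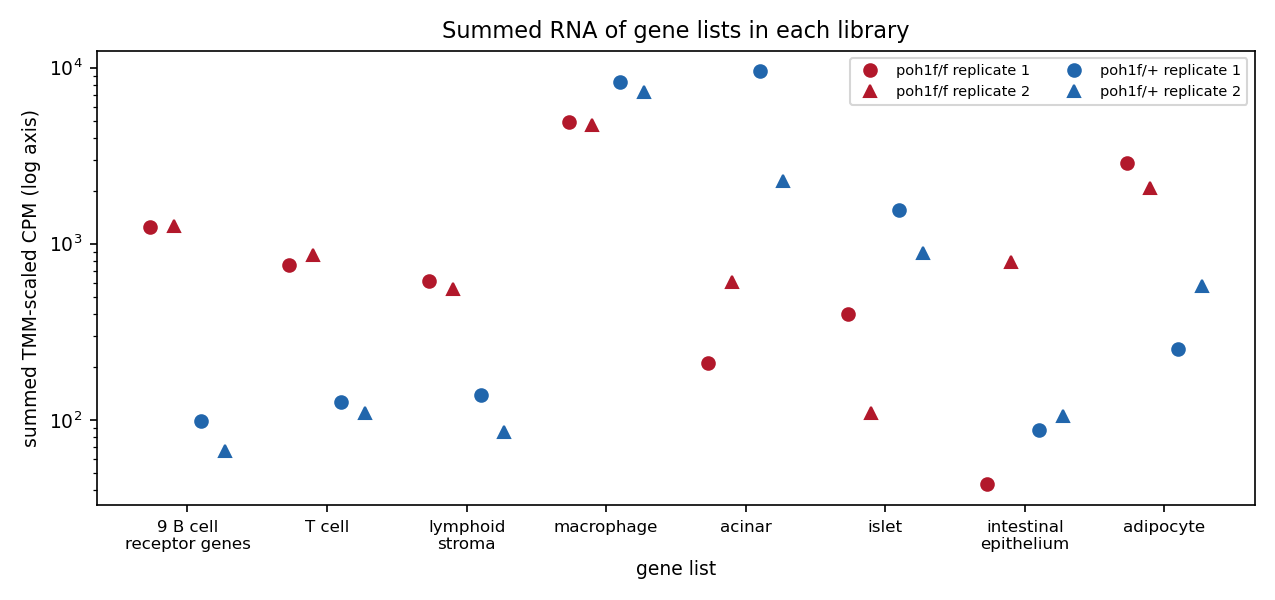
Summed TMM-scaled CPM of 8 gene lists in each library on a log axis, with poh1f/f in red to the left of poh1f/+ in blue. The 9 genes lie at 1247 and 1266 CPM in the libraries labelled poh1f/f, against 98.9 and 66.3 CPM in the poh1f/+ libraries, while the intestinal list is high in poh1f/f replicate 2 alone, at 792 CPM.

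Markers of other tissues give the setting of these values. In the libraries labelled poh1f/f, 6 of 9 acinar, 4 of 5 duct and 4 of 8 islet markers were lower and none was higher, and 5 of 6 adipocyte markers were higher (median log2 fold changes −4.27, −1.85, −2.34 and 2.99). Of these lists, 1 acinar and 1 islet marker were lower, and 3 adipocyte markers higher, without poh1f/+ replicate 1, and 2 islet markers were lower without poh1f/+ replicate 2, 8 without poh1f/f replicate 1 and 7 without poh1f/f replicate 2. Of 6 genes of splenic red pulp and red blood cells, 3 passed the filter and 1 was higher (3 without poh1f/f replicate 1), and the list summed to 129 and 242 CPM in the libraries labelled poh1f/f, against 22.7 and 77.5 CPM in the poh1f/+ libraries. The gene that was higher with all libraries was Spic (log2 fold change 3.64 ± 0.37, edgeR adjusted p = 0.00582). It had 31.3 and 23.6 CPM in the libraries labelled poh1f/f, against 2.91 and 1.51 CPM in the poh1f/+ libraries. The spleen homeobox gene Tlx1, which did not pass the filter, was at or below 0.728 CPM in all 4 libraries. The part of a changed make-up of the tissue in the values of the 9 genes was not tested.

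The protein-coding genes that flank the 9 genes on either side were looked up after the members' values were known. Of 18 flanking genes, 14 were tested, 4 were higher and 1 was lower (median log2 fold change 0.14), against 12.1% higher and 9.95% lower among all genes. Ffar1, a fatty acid receptor that begins its annotation 3838 bases beyond the 3′ end of Cd22 on the same strand, had 23.1 and 25.2 CPM in the libraries labelled poh1f/f, against 3.37 and 1.92 CPM in the poh1f/+ libraries (log2 fold change 3.19 ± 0.30, edgeR adjusted p = 0.00517). Scn4a, a muscle sodium channel gene 3830 bases upstream of Cd79b on the same strand, had 6.70 and 6.40 CPM, against 0.819 and 0.209 CPM (3.67 ± 0.61, edgeR adjusted p = 0.0175). Arhgef1, a leukocyte signalling gene 715 bases beyond Cd79a, rose by 0.95 ± 0.12 (edgeR adjusted p = 0.00877), and Zcchc7, next to Pax5, by 0.44 ± 0.09 (0.0309). Grb7, next to Ikzf3, had a log2 fold change of −1.28 ± 0.17 (edgeR adjusted p = 0.0105). The Zcchc7 call was lost without any 1 of the 4 libraries (0.0637 to 0.151; range over alternatives 0.00658 to 0.151), and that of Grb7 without poh1f/+ replicate 1 (0.0688; range 3.88e-07 to 0.0688).

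Profiles over the 4 libraries were compared with the median profile of the 9 by root mean square difference of centred log2 CPM. Immunoglobulin and T cell receptor segment genes were left out of this search. The nearest genes outside the 9 were then Zfp831 (0.0936), Gys2 (0.0990), Btla (0.105), Gimap3 (0.106) and Cd3e (0.125). Among the 9 genes themselves this distance ran from 0.0635 for Blk and 0.0777 for Bank1 to 0.516 for Pax5 and 0.620 for Cd22. Btla, an inhibitory receptor of B and T cells, had 141 and 158 CPM in the libraries labelled poh1f/f, against 8.23 and 6.23 CPM in the poh1f/+ libraries. Cd3e, a subunit of the T cell receptor complex, had 27.8 and 34.5 CPM, against 1.68 and 1.30 CPM. Gys2, the liver glycogen synthase gene, rested on few reads, with 53 and 52 counts in the libraries labelled poh1f/f, against 1 and 0 counts in the poh1f/+ libraries. Its fitted log2 fold change was 6.11 ± 0.76, and at such counts its place among the nearest depends on the prior count of 2. Of the 50 nearest genes found without the segment genes, 8 were on the T cell list and 3 on the coreceptor list. Among the same 50, 1 was on the list of B lineage factors and none on the kinase or inhibitor lists. With only 4 libraries, profiles of this shape are shared by many genes.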

How the data were processed

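Counts per gene symbol of 4 mouse pancreas libraries, 2 per genotype label, were analysed, grouped by sample title. Per the labels' protocols, total RNA was isolated with TRIzol and a VAHTS Universal V6 kit served for library construction. The build GRCm38 and the tools featureCounts 2.0.1, STAR 2.7.6a, Trim Galore 0.6.6, FastQC 0.11.9 and SAMtools 1.7 are named per the submitters' processing notes, while the sources used here state no strand or multi-mapping setting. The deposited values are raw counts, per the file headers and the values. Of 55291 symbols, 53292 matched GENCODE M21, used for coordinates and exon lengths.

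Replicates were not copies of each other (chi-square per degree of freedom 32.5 and 46.2 within groups). Genes were filtered with filterByExpr (19134 kept), scaled with TMM and tested with edgeR 4.0.16 in R 4.3.3 (quasi-likelihood F test, group as the only term, Benjamini-Hochberg adjustment over all tested genes, threshold 0.05). CPM uses TMM-scaled totals; SE was taken as the size of the log2 fold change over the root of F. Intervals cover counting error only. The fit was tested on simulated data. The 9 genes, the gene lists and the tests were chosen with earlier results of these data known. The rule for names took all members, Psmd14, the 4 most abundant genes of each pathway list, 2 of each other list, genes called against most of their list, and the 5 nearest profiles (log2 CPM with prior count 2). Genes of other cell type lists are mostly given as counts, and some genes that the rule names are not reported here. Cr2, Fcer2a, Cd180, Malt1, Btk, Blnk, Ptpn6, Ptpn22, Spib, Irf4, Pou2af1, Ebf1, Glycam1, Lta, Ltb, Vpreb3, Mzb1, Lcp2, Slamf7, Sis, Tlx1, the genes at 0 and the flanking genes were named after their values were seen. Alternatives were other scalings and filters, DESeq2 1.42.0, limma-voom (limma 3.58.1), a stricter threshold, a replicate block, and fits without each library in turn.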

Additional observations from a re-analysis of the deposited data

How the results depend on the processing

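The 9 genes stayed higher in the libraries labelled poh1f/f in all 108 values from 12 alternatives, with log2 fold changes of 2.73 to 5.68 and a median of 4.03 to 4.44, also where single libraries were left out (4.03 to 4.44). Of these values, 8 moved by more than the spread between replicates. All 8 were upward moves in the fit without poh1f/+ replicate 1, for every gene but Bank1. Over all genes, 2320 were higher and 1904 lower; at a threshold of 0.01 these were 644 and 323. The share of calls that were higher was 54.9%, and 64.9% with no scaling beyond the library total. Without that scaling the median log2 fold change of all genes was 0.097, against −0.002 in the main fit. At 0.01, 1 inhibitor and 4 kinase genes were higher, as was 1 adipocyte gene, while 2 macrophage, 0 acinar and 0 islet genes were lower. With the DESeq2 test 2 inhibitor genes and 1 dendritic gene were lower, and with a filter on the mean count 2 islet genes were.

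Deviations from group means were nearly uncorrelated between libraries of the same replicate number (0.0282), which cannot exclude a pairing that touches only some genes. The labels state no pairing, so the block is an alternative only. It gave 1960 higher and 1432 lower genes, 3 acinar, 8 islet and 6 macrophage genes lower, and 5 plasma and 3 spleen genes higher. It gave the 9 genes a median of 4.23. Among genes named in the report as higher, the calls of Syk (edgeR adjusted p = 0.0721) and Zcchc7 (0.0649) were lost under the block. Cxcl13, named as not passing in the main fit, was called higher under the block (log2 fold change 1.94).

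Leaving out 1 library at a time gave 702 to 2338 higher and 424 to 1696 lower genes, with 702 and 424 without poh1f/+ replicate 1 and 1137 lower without poh1f/+ replicate 2. The ranges of genes called higher were 7 to 10 (B lineage factors), 3 to 5 (inhibitors), 3 to 6 (adipocyte), 1 to 5 (plasma), 1 to 3 (spleen) and 0 to 12 (intestinal), the last with 12 without poh1f/f replicate 1. Those called lower were 1 to 8 (acinar), 1 to 8 (islet), 4 to 10 (macrophage) and 0 to 2 (intestinal). With 1 library left in a group, that lone sample is taken to vary as the other group does. Signs turned for genes that did not pass the test. The log2 fold change of Krt20 was −0.02, 0.10 without scaling and −2.82 to 0.87 with single libraries left out. That of Xbp1 was −0.09, 0.00 without scaling and −0.27 to 0.06 with single libraries left out, and that of Pik3ap1 was −0.06, and 0.04 without scaling. The intestinal median was 1.20 over the 4 of 12 markers that passed the filter. It was −1.10 to 8.78 with single libraries left out, the lowest without poh1f/f replicate 2. Each of these fits was filtered anew, so the medians do not cover the same genes. The list was high in poh1f/f replicate 2 alone, at 792 CPM. The cause was not tested. With 2 libraries a group, an exact permutation test of a single value could not pass the threshold.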
